A study of Rattus norvegicus with 26 samples.

Results

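The 10 genes described here code for the AP-1 transcription factor and for proteins that are induced together with it. They comprise the Jun family (*Jun*, *Junb* and *Jund*), the Fos family (*Fos*, *Fosb*, *Fosl1* and *Fosl2*), and *Atf3*, *Egr1* and *Ier3*. A gene was measured by the gene probe that carried its name in the scanner output, and by the brightest such probe where there were several. All 10 genes had a probe, with 12 probes among the 41012 gene probes of the array, since *Jund* had 3, and the scanner output carried 35287 different gene names in all.

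RNA came from rat multipotent adult progenitor cells (rMAPCs), an *Oct4*-expressing population grown from the bone marrow of female Fischer rats. The cells were turned towards smooth muscle by TGF-β and PDGF-BB in basal rMAPC medium without serum. The lines Cl19 and 3c3 were each harvested before the growth factors (d0) and on d2, d4 and d6, with 3 arrays per line and day. The labels give the bone marrow of Cl19 an age of 3 weeks and that of 3c3 embryonic day 18. Each line is 1 clone, so the spread between its arrays is a spread within a clone. All days other than d0 carry both growth factors, and no culture without them was measured on d2, d4 or d6. For differentiation the cells were also plated at a set density in serum-free medium, while the methods give the culture of undifferentiated cells only by reference. Time in culture, growth factors, medium and plating density therefore cannot be told apart. Rat primary smooth muscle cell (SMC) RNA was measured on 2 arrays, which makes 26 arrays in 9 groups. The labels call that RNA aortic and name another supplier than the methods do, and nothing says whether its 2 arrays came from separate animals.

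AP-1 is a dimer of leucine zipper proteins. Jun proteins can pair with each other or with a Fos protein, while Fos proteins need a Jun partner to bind DNA. Growth factors such as PDGF reach these genes through MAP kinases: ERK signalling switches on *Fos* and *Egr1* through serum response factor and its cofactors at CArG boxes, and JNK raises the activity of the JUN protein. *Fos*, *Fosb* and *Egr1* are typically induced for a short time, whereas *Fosl1*, *Fosl2* and *Junb* come later and last longer. JUNB and JUND often restrain what JUN drives. ATF3 belongs to the same zipper superfamily and responds to stress and to TGF-β, EGR1 is a zinc finger protein, and IER3 is a small protein with roles in cell survival. In smooth muscle, AP-1 and EGR1 are known from the growth response of the vessel wall after injury.

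Between 43.2% and 61.4% of the probes of an array were well above background, and the median SD between arrays of a group lay between 0.18 and 0.32 on the log2 scale. The 10 smooth muscle markers with a probe summed to linear levels of 1869 to 2258 on d0 and 61173 to 73146 on d6 in Cl19, 1492 to 1728 and 29057 to 46115 in 3c3, and 98426 to 100854 in the primary SMC RNA. *Myh11*, 1 of the 11 markers chosen, was not analysed here. These sums do not show how many markers moved. Of the 9 smooth muscle markers that could be tested, 5 rose past the threshold from d0 to d6 in Cl19 and none fell. For 3c3 the same test had 6 of these 9 up and 1 down. Well above background on every d6 array were 7 of the 10 in Cl19 and 5 in 3c3, while 1 and 3 were so on no d6 array. The 7 markers of undifferentiated rMAPCs went from 42434 to 45226 on d0 to 17040 to 25500 on d6 in Cl19. In 3c3 they went from 45241 to 49145 on d0 to 30153 to 32121 on d6. All 7 were tested: 6 fell and 1 rose past the threshold in Cl19, while for 3c3 the test had 5 down and 1 up. The 6 fibroblast markers summed to 8430 to 13960 on d6 in Cl19 and 644 to 2290 in 3c3, against at most 525 and 206 on d0, and to 64979 to 68186 in the primary SMC RNA. Of the 5 that were tested, 3 were higher and 1 lower on d6 in Cl19, and 2 were higher in 3c3. Leukocyte markers (8 genes) reached 862 to 2097 on d6 in 3c3 against 231 to 279 on d0, with *Ptprc*, *Cd3e*, *Cd79b* and *Itgam* not well above background on any d6 array. Endothelial, adipocyte and erythroid markers summed to at most 426 in any sample of the lines. The part of these other cells in the results below was not tested, and fewer cells of a type cannot be told apart from less RNA per cell in bulk RNA. One array, replicate 1 of Cl19 on d2, was closer to the 3c3 arrays of d2 (root mean square difference 0.38 to 0.54) than to the other d2 arrays of Cl19 (0.88 and 0.92), and the slide of 3c3 replicate 3 had negative control signals of 28.3 to 44.5 against 10.9 to 14.0 on the other arrays. Calls that were lost without that array or that slide are given beside the results or, as counts, in the last section, apart from those with the slide as a block.

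The promoters of *Jund* and *Egr1* are shown because, among the members that could be searched, their upstream sequence held a site for factors of this same network. The RefSeq table of the rat assembly GRCr8 held the promoter of 6 of the 10 genes, and the 250 bases before the start of each were searched on both strands for the CRE (TGACGTCA), the AP-1 element (TGANTCA), the EGR element (GCGTGGGCG) and the CArG box, to which serum response factor binds. Capitals mark the motifs, and the sequences run 5′ to 3′ on the gene's strand.
*Jund* (chr16:18769772-18770021, minus strand): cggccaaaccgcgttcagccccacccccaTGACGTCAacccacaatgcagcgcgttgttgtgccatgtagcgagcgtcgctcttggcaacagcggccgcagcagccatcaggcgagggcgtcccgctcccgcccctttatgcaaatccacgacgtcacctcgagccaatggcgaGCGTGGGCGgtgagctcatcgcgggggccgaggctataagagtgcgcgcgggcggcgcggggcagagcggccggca
*Egr1* (chr18:26736828-26737077, plus strand): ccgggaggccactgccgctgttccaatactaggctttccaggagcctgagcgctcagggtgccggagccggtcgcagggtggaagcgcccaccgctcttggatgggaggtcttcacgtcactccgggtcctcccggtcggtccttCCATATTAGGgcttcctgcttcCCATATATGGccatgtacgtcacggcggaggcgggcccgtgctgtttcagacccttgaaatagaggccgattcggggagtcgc
The *Jund* promoter held a CRE at bases -221 to -214 and an EGR element at -76 to -68, counted back from the base next to the start. The *Egr1* promoter held 2 CArG boxes, at -105 to -96 and at -83 to -74. None of the 4 motifs was found in these windows of *Fosb*, *Fosl1*, *Fosl2* and *Junb*. The promoters of *Fos*, *Jun*, *Atf3* and *Ier3* were not at hand and were not searched. Among 33469 promoters of the same length, 1.59% held the CRE, 6.34% the AP-1 element, 1.5% a CArG box and 0.478% the EGR element. A match is a stretch of letters and does not show that a factor was bound.

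By d6 most of the AP-1 genes stood higher than on d0, and the Jun family, *Fosl1* and *Ier3* did so in both lines. In Cl19, 5 of the 10 genes were higher on d6 than on d0 past the threshold and none was lower. Of all probes, 22.0% were higher and 30.3% lower. The main fit was limma without a term for the slide. Benjamini-Hochberg adjustment ran over the 24442 probes tested, and the threshold was an adjusted p under 0.05. In 3c3, 8 of the 10 were higher and none was lower, where 19.7% of all probes were higher and 28.6% lower. The largest changes were those of *Fosl1* in Cl19 (8.79-fold) and *Ier3* in 3c3 (6.83-fold), and *Fosb* did not pass the test in either line. All 10 genes could be tested, 9 of them with probes well above background on all 26 arrays. *Egr1* entered only through the d4 arrays of Cl19 and the primary SMC arrays. Levels below are quantile-normalized log2 intensities, in the order of replicates 1, 2 and 3, and differences are on the same log2 scale. Levels of different probes are not compared, since a probe's brightness also depends on its sequence.

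**Figure D1:**
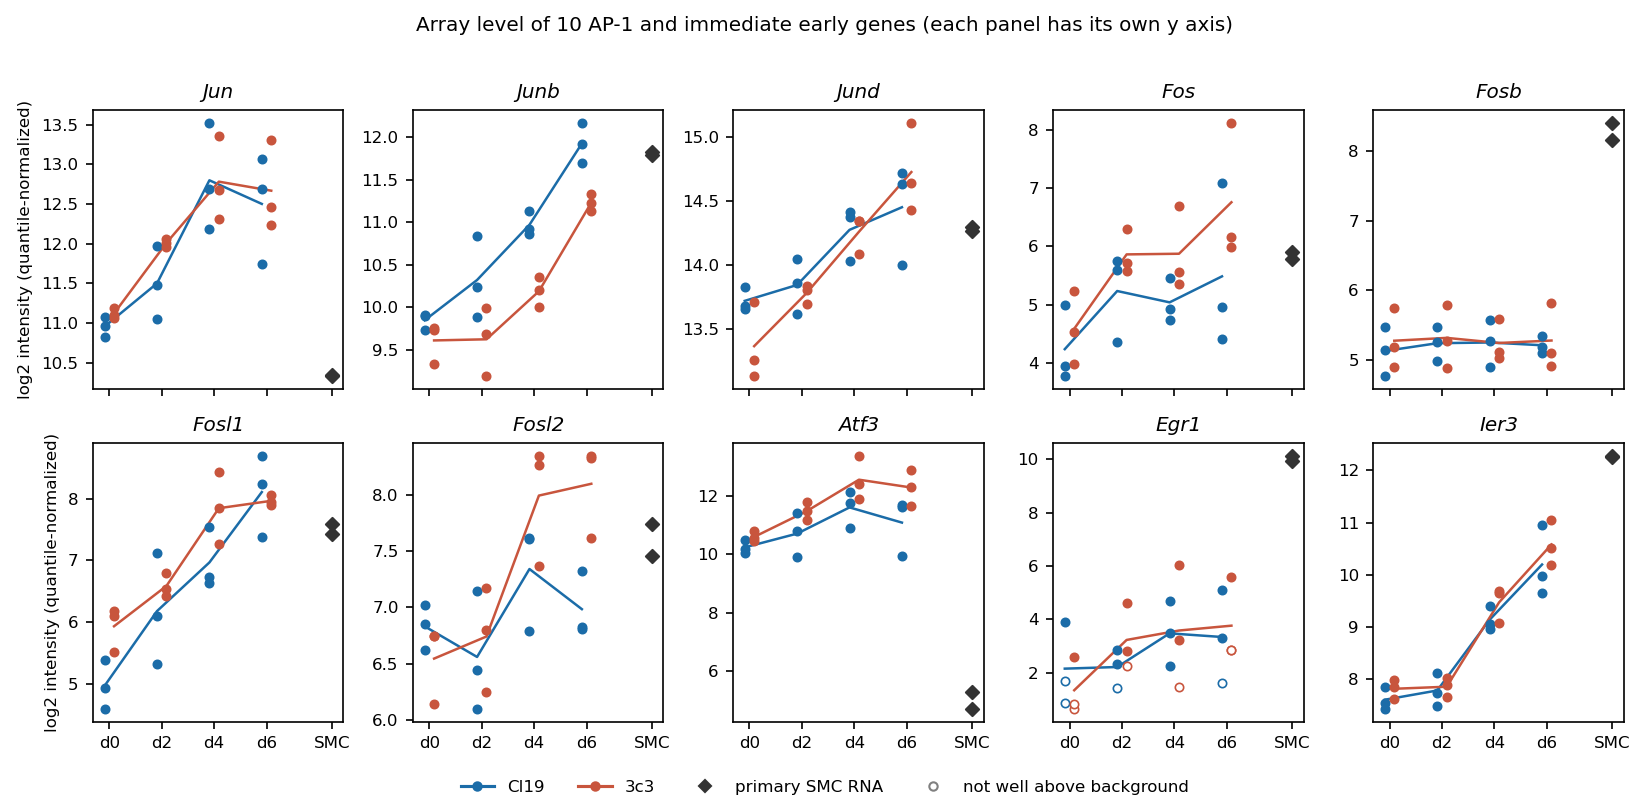
Log2 level (y axis, quantile-normalized intensity, an own range in each panel) of the 10 genes by day of differentiation (x axis) in Cl19 (blue) and 3c3 (red), 1 point per array with lines through the group means, and diamonds for the 2 primary SMC arrays; open symbols mark arrays on which the probe was not well above background. *Jun*, *Junb*, *Jund*, *Fosl1* and *Ier3* climb in both lines, and *Fosb* stays level over the days sampled. *Atf3* in the primary SMC RNA lies at 4.71 and 5.31, under every rMAPC array.

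*Jun* codes for the partner that gives AP-1 most of its DNA binding and activity. Its probe (rn4 chromosome 5, 115358764 to 115358823) read 10.96, 11.08 and 10.82 on d0 and 12.69, 13.07 and 11.75 on d6 in Cl19. In 3c3 it read 11.19, 11.10 and 11.07 on d0 and 12.23, 13.31 and 12.46 on d6. No d6 array of a line overlapped its d0 arrays. *Jun* rose by 1.54 (SE 0.36, 2.92-fold, adjusted p = 0.0012) in Cl19 and by 1.55 (SE 0.36, 2.92-fold, adjusted p = 0.0014) in 3c3. The level on d4 (12.80 ± 0.67 and 12.78 ± 0.53, SD, n = 3) was no lower than on d6 (12.50 ± 0.68 and 12.67 ± 0.57), and d6 did not differ from d4 past the threshold (-0.30, adjusted p = 0.79 in Cl19, and -0.11, adjusted p = 0.90 in 3c3).

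*Junb* codes for a Jun protein with weaker activity of its own that can hold JUN in check. Its probe (chromosome 19, 24832781 to 24832840) read 9.91, 9.73 and 9.90 on d0 in Cl19 and 11.69, 12.17 and 11.92 on d6. In 3c3 the values were 9.74, 9.34 and 9.76 on d0 and 11.34, 11.22 and 11.14 on d6. The 3 arrays of each d6 group lay close together and well over all d0 arrays of the line. *Junb* rose by 2.08 (SE 0.22, 4.22-fold, adjusted p = 1.5e-07) in Cl19 and by 1.62 (SE 0.22, 3.07-fold, adjusted p = 5.4e-06) in 3c3, and d6 was the highest day in both lines.

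*Jund*, usually the most constant Jun gene and linked to slow growth, had smaller changes on its brightest probe than *Jun* and *Junb*. That probe (chromosome 16, 19239704 to 19239763) read 13.65, 13.82 and 13.68 on d0 and 14.72, 14.64 and 14.00 on d6 in Cl19. The 3c3 values were 13.71, 13.26 and 13.13 on d0 and 14.43, 15.11 and 14.64 on d6. Replicate 3 of Cl19 on d6 lay only just above the highest d0 array. *Jund* rose by 0.73 (SE 0.20, 1.66-fold, adjusted p = 0.0046) in Cl19 and by 1.36 (SE 0.20, 2.57-fold, adjusted p = 1.7e-05) in 3c3. In Cl19 the call was lost with scaling by the 75th percentile (0.34, adjusted p = 0.17). A dimmer *Jund* probe rose by 1.24 (adjusted p = 2.5e-04) in Cl19 and 1.83 in 3c3, and a dimmest one, annotated on the opposite strand, gave 0.51 (adjusted p = 0.10) and 0.93 (adjusted p = 0.0048).

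*Fosl1* codes for FRA1, a Fos protein without the activation domain of FOS that is known from migrating and invasive cells. Its probe (chromosome 1, 208098827 to 208098886) read 5.39, 4.59 and 4.93 on d0 and 8.24, 8.69 and 7.38 on d6 in Cl19. In 3c3 it read 6.18, 5.52 and 6.10 on d0 and 7.90, 8.05 and 7.94 on d6. The d6 arrays of both lines met at about the same level, and none overlapped d0. *Fosl1* rose by 3.14 (SE 0.40, 8.79-fold, adjusted p = 1.9e-06) in Cl19 and by 2.03 (SE 0.40, 4.08-fold, adjusted p = 3.2e-04) in 3c3. The difference between these changes, 1.11, did not pass the test (adjusted p = 0.21).

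*Fosl2* codes for FRA2, a relative of FRA1 that lasts longer than FOS after a stimulus. In 3c3 its probe, which the array's annotation places nowhere on rn4, read 6.75, 6.14 and 6.74 on d0 and 7.62, 8.35 and 8.33 on d6. In Cl19 the values were 7.02, 6.63 and 6.85 on d0 and 6.81, 7.32 and 6.83 on d6. The groups were apart in 3c3 and overlapped in Cl19. *Fosl2* rose by 1.56 (SE 0.33, 2.94-fold, adjusted p = 6.2e-04) in 3c3, while Cl19 gave 0.15 (SE 0.33, adjusted p = 0.73).

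*Fos*, the gene of the founding Fos protein, varied widely between slides. Its probe (chromosome 6, 109561099 to 109561158) read 3.95, 5.0 and 3.77 on d0 and 4.95, 7.09 and 4.42 on d6 in Cl19. In 3c3 it read 3.99, 5.24 and 4.54 on d0 and 5.99, 8.12 and 6.17 on d6. Replicate 2 was the highest array on d0 and d6 in both lines, and the groups overlapped in Cl19 only. *Fos* rose by 2.17 (SE 0.63, 4.50-fold, adjusted p = 0.0077) in 3c3, a call that was lost without replicate 2 of d6 (1.49, adjusted p = 0.064). In Cl19 the difference was 1.25 (SE 0.63, adjusted p = 0.10), and it passed without replicate 3 of d6 (1.78, adjusted p = 0.033).

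The 4 days of a replicate lay on 1 slide, so that the change can also be read within a slide. The days took the same order of positions on every slide of the lines. Position on the slide and day therefore cannot be told apart. Between d0 and d6 *Fos* changed by 1.01, 2.09 and 0.65 on the slides of Cl19 and by 2.00, 2.88 and 1.63 on those of 3c3, with the same sign on all 6 slides. With the replicate as a block, *Fos* rose in Cl19 as well (1.25, adjusted p = 0.0071), and the members called there became 6, with 24.9% of all probes higher under that block.

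*Fosb* codes for a Fos protein that is induced along with FOS in many cells. Its probe (chromosome 1, 78668672 to 78668731) lay between 4.77 and 5.82 on all 24 arrays of the lines. Means on d0 and d6 were 5.13 ± 0.35 and 5.21 ± 0.13 in Cl19 and 5.28 ± 0.44 and 5.28 ± 0.48 in 3c3 (SD, n = 3). The fitted changes were 0.08 (SE 0.28, adjusted p = 0.83) and 0.00 (SE 0.28, adjusted p = 0.99), with slides moving in both directions.

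*Atf3*, a stress-responsive zipper gene that also answers TGF-β, rose in 3c3. Its probe (chromosome 13, 107191691 to 107191749) read 10.56, 10.77 and 10.43 on d0 and 11.66, 12.89 and 12.28 on d6 in that line. In Cl19 it read 10.18, 10.48 and 10.04 on d0 and 11.60, 11.68 and 9.95 on d6. Replicate 3 of Cl19 on d6 was the lowest of these 6 arrays, and the others of d6 lay over d0. *Atf3* rose by 1.68 (SE 0.47, 3.22-fold, adjusted p = 0.0060) in 3c3, with an adjusted p of 0.061 without the slide of replicate 3. Cl19 gave 0.85 (SE 0.47, adjusted p = 0.14), and 1.41 (adjusted p = 0.015) without replicate 3 of d6. On d4 *Atf3* was higher than on d0 in both lines, by 1.36 (adjusted p = 0.022) in Cl19, where 20.2% of all probes were higher, and by 1.95 (adjusted p = 0.0030) in 3c3, where 14.8% were.

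*Egr1*, the immediate early gene whose promoter held the 2 CArG boxes shown above, was near background in rMAPCs. Its probe (chromosome 18, 27347173 to 27347232) passed the background test on 17 of 26 arrays, among them 1 of 3 arrays on d0 and 2 of 3 on d6 in each line. Values on d0 and d6 ran from 0.87 to 3.89 and from 1.62 to 5.09 in Cl19, and from 0.63 to 2.58 and from 2.85 to 5.57 in 3c3. The change was 1.19 (SE 1.12, adjusted p = 0.40) in Cl19 and 2.42 (SE 1.12, adjusted p = 0.082) in 3c3. Within slides of 3c3 it was 2.22, 2.99 and 2.06, and with the replicate as a block the fitted difference had an adjusted p of 0.0061, where 22.5% of all probes were higher. Since most of its d0 arrays were at background, this difference has no fold, and *Egr1* is not counted among the members that rose.

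*Ier3*, which codes for a survival protein that ERK can phosphorylate, rose by like amounts in both lines. Its probe (chromosome 20, 3076832 to 3076891) read 7.85, 7.41 and 7.53 on d0 and 9.98, 10.95 and 9.65 on d6 in Cl19. The 3c3 values were 7.98, 7.61 and 7.84 on d0 and 10.19, 11.04 and 10.51 on d6. All 6 d6 arrays lay over all 6 d0 arrays. *Ier3* rose by 2.60 (SE 0.28, 6.05-fold, adjusted p = 2.4e-07) in Cl19 and by 2.77 (SE 0.28, 6.83-fold, adjusted p = 1.9e-07) in 3c3.

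**Figure D2:**
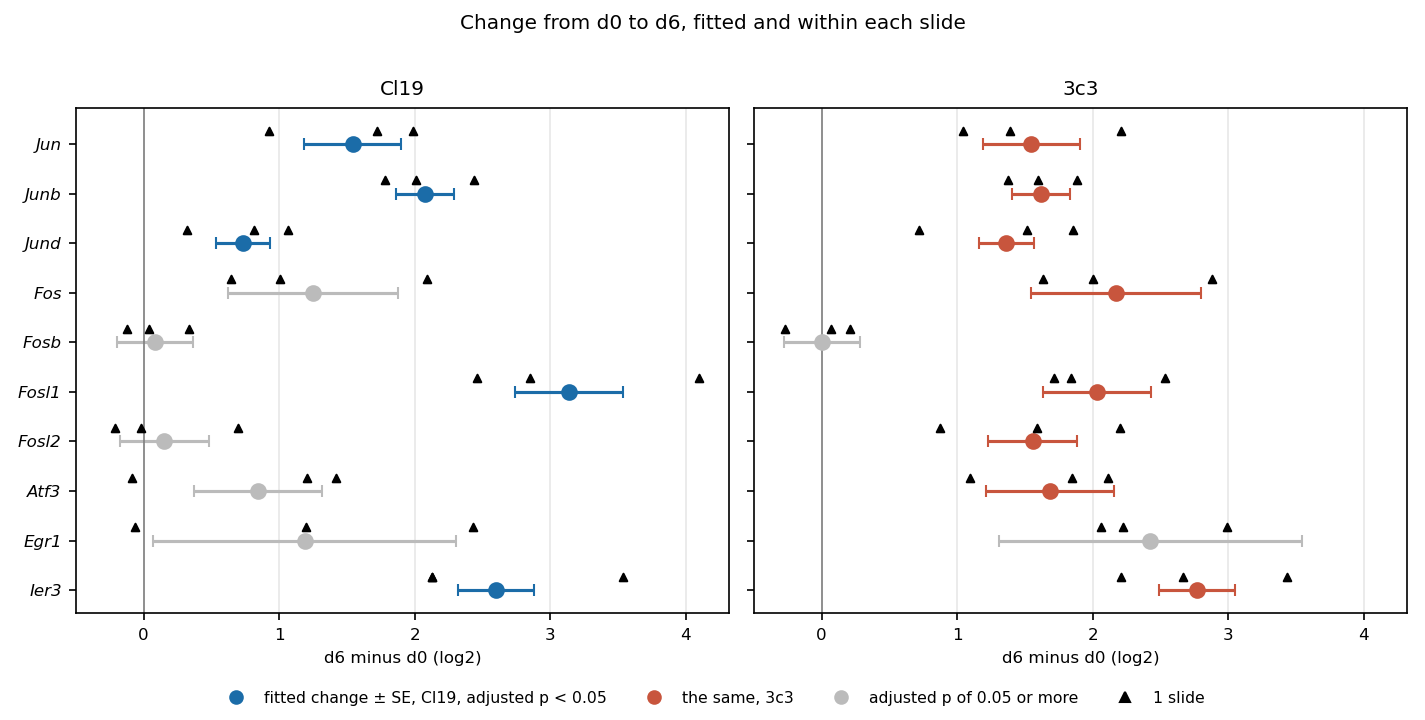
Fitted difference between d6 and d0 (x axis, log2) of each gene in Cl19 and 3c3, with bars of 1 SE, grey where the adjusted p did not pass, and black triangles for the change within each of the 3 slides. *Fosl1* at 3.14 leads in Cl19 and *Ier3* at 2.77 in 3c3, and *Fosb* sits at 0.08 and 0.00.

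The time courses asked between which sampled days these genes moved. No array lay between d0 and d2, so a rise that was over before d2 could not be seen. The methods also give no time from the last medium change to a harvest. In an F-test over the 4 days, the 5 genes called on d6 in Cl19 passed (54.3% of all probes did), and the 8 called on d6 in 3c3 passed (50%), *Fos* by a narrow margin (adjusted p = 0.045). Without the slide of 3c3 replicate 3, *Fos* (adjusted p = 0.14) and *Atf3* (adjusted p = 0.088) did not pass in 3c3. On d4, 6 members were already higher than on d0 in Cl19 and 7 in 3c3, where 20.2% and 14.8% of all probes were. In Cl19 these were *Jun* (1.84), *Fosl1* (2.00), *Ier3* (1.54), *Atf3*, *Junb* (1.12) and *Jund* (0.56), and in 3c3 *Jun* (1.66), *Fosl1* (1.91), *Ier3* (1.66), *Atf3*, *Fosl2* (1.45), *Jund* (0.89) and *Junb* (0.58). Without the slide of replicate 3, *Jund* (0.73, adjusted p = 0.059) and *Junb* (0.57, adjusted p = 0.17) did not pass on d4 in 3c3.

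From d0 to d2, 1 member passed in Cl19, *Fosl1* at 1.21 (SE 0.40, adjusted p = 0.034), where 11.2% of all probes were higher. This call is fragile: without replicate 1 of Cl19 on d2, the array that stood close to 3c3, *Fosl1* had an adjusted p of 0.19 and *Junb* passed in its place (adjusted p = 0.026). No member passed without replicate 2 or 3 of d0 or replicate 2 of d2 of Cl19, or without the slide of 3c3 replicate 3. In 3c3 none passed in the main limma fit, where 9.80% of all probes were higher. The methods' t-test had 3 members at an unadjusted p under 0.05 and 1 after adjustment. The share of all probes under that test is not given here, so these counts have no background to be read against. *Fos* was higher on d2 than on d0 on all 6 slides. The slides of Cl19 gave 1.81, 0.61 and 0.58, and those of 3c3 gave 1.72, 1.06 and 1.04. The 1.81 came from replicate 1 of Cl19 on d2, the array close to 3c3. The block fits that follow hold that array, and no block result without it is given. With the replicate as a block, *Fos* (adjusted p = 0.045) and *Fosl1* (adjusted p = 0.032) passed in Cl19, with 14.6% of all probes higher. In 3c3 *Fos* (adjusted p = 0.015), *Jun* (adjusted p = 0.039) and *Egr1* (adjusted p = 0.048, close to background on d0) then passed, with 12.9% higher.

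From d2 to d4, *Ier3* rose by 1.36 (adjusted p = 0.0020), *Jun* by 1.30 (adjusted p = 0.015) and *Junb* by 0.65 (adjusted p = 0.039) in Cl19, where 9.34% of all probes were higher. Without replicate 1 of d2, *Junb* was lost (adjusted p = 0.23), and *Fosl1* (adjusted p = 0.039) and *Fosl2* (adjusted p = 0.049) passed. In 3c3 *Ier3* rose by 1.62 (adjusted p = 0.0018) and *Fosl2* by 1.25 (adjusted p = 0.023), where 4.33% were higher. Neither passed without the slide of replicate 3 (*Ier3* adjusted p = 0.052). With the replicate as a block, *Fosl1* (adjusted p = 0.042) and *Junb* (adjusted p = 0.044) passed in 3c3 too, with 7.25% of all probes higher.

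From d4 to d6, *Ier3* and *Junb* were the members that passed the threshold. *Fosl1* had a larger difference in Cl19 (1.14) than these 2 genes and did not pass, with 1.52, 2.06 and -0.16 on its slides. *Fos* (0.42 to 1.42) and *Jund* (0.30 to 0.77) were also higher on all 3 slides of 3c3. *Jun* and *Atf3* were lower on all 3, and none of these 4 passed. *Ier3* gained 1.06 (adjusted p = 0.026) in Cl19 and 1.11 (adjusted p = 0.016) in 3c3. *Junb* gained 0.95 (adjusted p = 0.010) and 1.04 (adjusted p = 0.0047). Of all probes, 3.44% in Cl19 and 5.91% in 3c3 were higher in this step. Both calls of Cl19 were lost without replicate 1 of d4 or replicate 2 of d6. In Cl19, 1 call remained without replicate 2 of d4 or without the slide of 3c3 replicate 3. In 3c3, 1 call remained without replicate 1 of d4, without replicate 2 of d6, or without the slide of replicate 3, where *Ier3* had an adjusted p of 0.080.

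The lines were compared as well, although they were scanned on separate days, so that line and scan day cannot be told apart for levels. On d0 no member differed between Cl19 and 3c3 in limma, where 3.07% of all probes did. The methods' t-test had 1 member at an unadjusted p under 0.05 and 0 after adjustment, and its share of all probes is not given here. On d6 *Fosl2* was lower in Cl19 than in 3c3 (-1.12, adjusted p = 0.014) and *Junb* higher (0.69, adjusted p = 0.019), where 29.1% of all probes differed. Both calls were lost without the slide of 3c3 replicate 3 (*Fosl2* -1.0, adjusted p = 0.065, and *Junb* 0.65, adjusted p = 0.094). Each change from d0 was measured within a line, and the test of the difference between these changes called *Fosl2* alone, with a change that was 1.40 smaller in Cl19 (SE 0.46, adjusted p = 0.042), where 17.4% of all probes differed. The 3 slides of 3c3 gave *Fosl2* changes of 0.87, 2.20 and 1.59, and those of Cl19 -0.21, 0.70 and -0.02, which do not overlap. The call is close to the threshold. It was lost without any 1 of 10 of the 26 arrays (in Cl19 each d0 array and replicates 1 and 3 of d6, in 3c3 replicate 1 of d2 and replicates 2 and 3 of d0 and of d6), without the slide of 3c3 replicate 3 (adjusted p = 0.11) and without the filter on dim probes (adjusted p = 0.069), and held with the replicate as a block (adjusted p = 0.025).

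The primary SMC RNA was set against d6 of each line. Both comparisons share the 2 primary arrays, which were scanned on a day of their own, so that batch and cell type cannot be told apart. Against Cl19 3 members were higher and 2 lower in the primary SMC RNA, and against 3c3 4 were higher and 2 lower. Of all probes, 32.8% and 33.4% were higher and 38.6% and 38.1% lower, so that most probes differed. *Atf3*, *Jun*, *Egr1*, *Fosb* and *Ier3* made up the calls against Cl19, and *Junb* joined them against 3c3.

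Against d0, 7 members were higher and 1 lower in each line, where 31.2% (Cl19) and 31.5% (3c3) of all probes were higher and 41.5% and 41.6% lower.

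Against d6 of both lines, *Atf3* and *Jun* were the lower ones. *Atf3* read 4.71 and 5.31 in the primary SMC RNA, against 9.91 to 13.35 over all rMAPC arrays. It was lower by 6.07 (SE 0.53, 67.2-fold, adjusted p = 3.6e-09) than on d6 of Cl19 and by 7.27 (154-fold, adjusted p = 2.4e-10) than on d6 of 3c3. The size depended on the processing, from -4.44 (normexp) to -8.04 (the unscaled table) against Cl19 and from -5.60 to -9.22 against 3c3. *Jun* read 10.33 and 10.35, under every rMAPC array, and was 4.47-fold (adjusted p = 7.9e-05) and 5.02-fold (adjusted p = 3.3e-05) lower than on d6. Against d0 the *Jun* differences were -0.62 (adjusted p = 0.17) in Cl19 and -0.78 (adjusted p = 0.086) in 3c3.

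*Egr1*, *Fosb* and *Ier3* were the higher ones against d6 of both lines. *Egr1* read 9.95 and 10.13 in the primary SMC RNA, where the highest rMAPC array read 6.05. Since the probe was near background in the lines, its difference is a bound with quantile normalization. That bound was at least 101-fold against d6 of Cl19 (adjusted p = 8.6e-05) and at least 57.0-fold against d6 of 3c3 (adjusted p = 1.7e-04). The size depended on the processing. Over all alternatives the fitted log2 difference of *Egr1* ranged from 3.74 to 7.58 against Cl19 and from 3.68 to 7.18 against 3c3. Its lower ends lie under these bounds. *Fosb* read 8.40 and 8.16, above all 24 rMAPC arrays, and was 8.39-fold (adjusted p = 4.1e-08) and 8.0-fold (adjusted p = 5.4e-08) higher than on d6. *Ier3* read 12.26 and 12.28 and was higher by 2.07 (SE 0.31, adjusted p = 7.3e-06) than in Cl19 and by 1.69 (adjusted p = 7.8e-05) than in 3c3. Against d0 it was higher by 4.67 and 4.46.

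The remaining Fos and Jun genes differed less between d6 and the primary SMC RNA. *Junb* read 11.82 and 11.80, which differed by -0.12 (adjusted p = 0.68) from d6 of Cl19 and by 0.58 (SE 0.24, adjusted p = 0.038) from d6 of 3c3, whereas against d0 it was higher by 1.96 and 2.20. The call against 3c3 was lost without either primary array (adjusted p = 0.12 and 0.11), without replicate 2 or 3 of d6 of 3c3 (adjusted p = 0.068 and 0.088), without the slide of 3c3 replicate 3 (adjusted p = 0.11), without the filter on dim probes (adjusted p = 0.055), or with the slide as a random block (adjusted p = 0.062). *Fosl1* read 7.59 and 7.43 and differed by -0.59 (adjusted p = 0.24) and -0.45 (adjusted p = 0.37) from d6, and by 2.54 and 1.58 from d0. *Fosl2* (0.62 and -0.50), *Fos* (0.36 and -0.91) and *Jund* (-0.17 and -0.44) did not pass either, which does not show that their levels were equal.

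**Figure D3:**
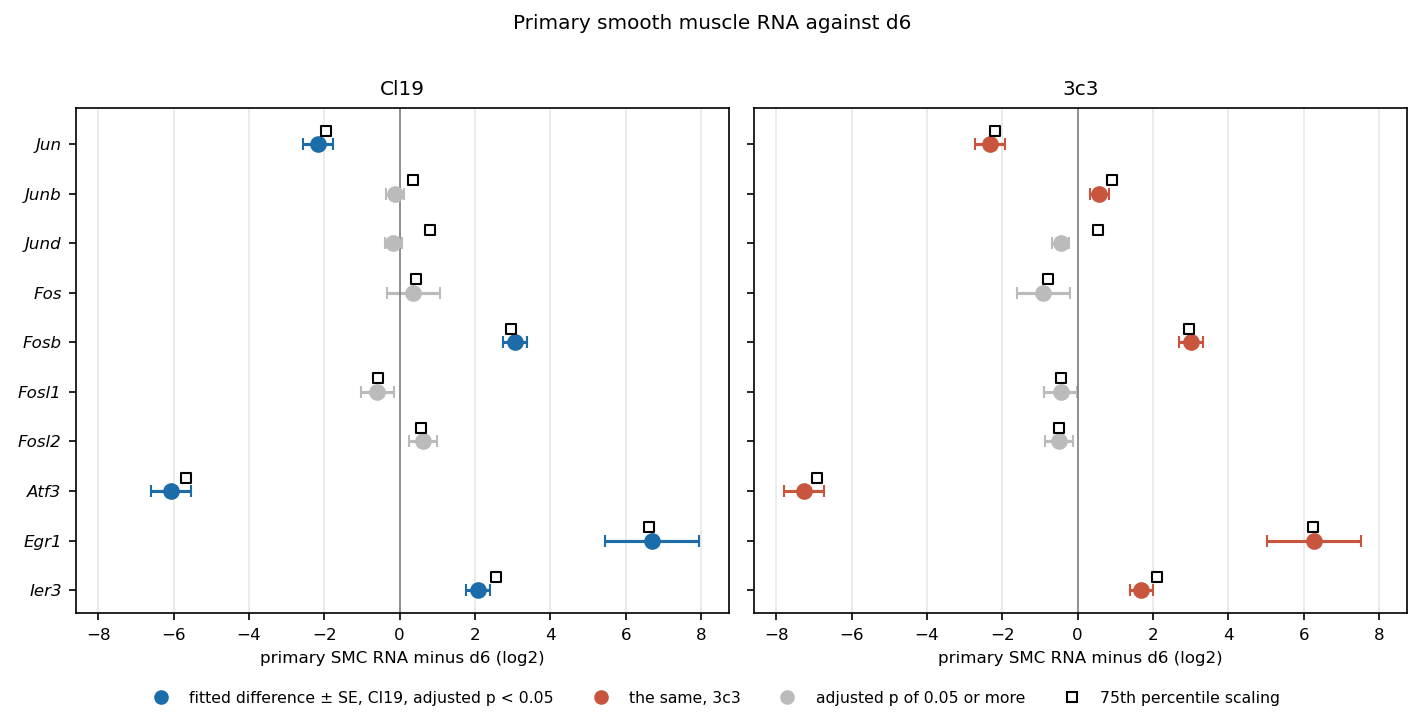
Difference between the primary SMC RNA and d6 (x axis, log2) of each gene for Cl19 and 3c3, with bars of 1 SE (2 primary and 3 d6 arrays); open squares give the same difference after scaling by the 75th percentile in place of quantile normalization. *Atf3* and *Jun* lie left of 0 and *Egr1*, *Fosb* and *Ier3* right of 0 under both scalings.

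The scaling matters for this comparison. The median difference of all probes tested between primary SMC RNA and d6 was -0.13 in both lines with quantile normalization, 0.21 with the 75th percentile and -2.17 and -2.09 in the unscaled log2 table. *Atf3* and *Jun* remained lower and *Egr1* higher past the threshold under each of the scalings, whereas *Fosb* (0.57 and 0.66) and *Ier3* (0.18 and -0.19) did not pass in the unscaled table. *Jund* had no settled direction: its brightest probe was higher by 0.82 (adjusted p = 0.0036) and 0.53 (adjusted p = 0.044) in the primary SMC RNA with the 75th percentile, its dimmer probe was lower there by 1.04 (adjusted p = 0.0021) and 1.23 (adjusted p = 4.8e-04) with quantile normalization, and the opposite-strand probe was higher by 1.14 (adjusted p = 0.0013) and 0.88 (adjusted p = 0.0094).

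Genes around AP-1 were read from 4 lists written from general knowledge, with earlier results of these data known. Their counts beside the shares of all probes are a description and no independent test. Of 40 other immediate early genes 35 were tested, and 23 were higher and 7 lower on d6 in Cl19, against 22 and 3 in 3c3, with 18 higher in both lines. Of all probes, 22.0% and 19.7% were higher, 30.3% and 28.6% lower, and 13.2% higher in both lines. The median change of the list was 1.64 and 1.16, where that of all probes tested was -0.20 and -0.21. *Dusp1*, whose phosphatase switches off MAP kinases, rose by 5.17 (adjusted p = 4.7e-10) in Cl19 and by 3.59 (adjusted p = 9.2e-08) in 3c3. For *Dusp6*, with a like role towards ERK, the rise was 4.09 (adjusted p = 2.1e-05) in the former line and 4.72 (adjusted p = 6.2e-06) in the latter. The antiproliferative gene *Btg2* rose by 3.16 and 3.14. *Dusp2*, a phosphatase gene of the same family, stood lower on d6 by at least 26.4-fold (Cl19, where 1 of 3 d6 arrays was well above background) and at least 9.45-fold (3c3, 2 of 3 arrays). *Sik1*, a kinase gene induced by cAMP, rose by 4.56 in Cl19 and fell by 1.73 in 3c3.

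Already from d0 to d2, 17 of these 35 genes were higher in Cl19 and 9 in 3c3, with 1 lower in each line, where 11.2% and 9.80% of all probes were higher. Without replicate 1 of d2, Cl19 had 19 higher, with 12% of all probes. Without the slide of replicate 3, 3c3 had 4 higher, with 5.31% of all probes. Against d6, the primary SMC RNA had 7 of them higher and 18 lower for Cl19 and 8 higher and 20 lower for 3c3, where 32.8% and 33.4% of all probes were higher and 38.6% and 38.1% lower.

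The other bZIP factors, relatives that share the zipper, were read in the same way. Of 25 tested, 8 were higher and 3 lower in each line, with medians of 0.47 and 0.57, beside the same shares of all probes on d6 (22.0% and 19.7% higher, 30.3% and 28.6% lower). *Cebpb* rose by 2.19 (adjusted p = 0.038) and 2.26 (adjusted p = 0.035, and 0.17 without the slide of 3c3 replicate 3), *Cebpd* by 1.66 and 1.71, and *Maff*, a small Maf gene, by 1.74 and 1.17. *Batf*, a zipper gene known from lymphocytes that pairs with Jun proteins, fell by 1.87 in Cl19 and was at least 2.56-fold lower in 3c3, where 2 of 3 d6 arrays were well above background.

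In the MAP kinase route upstream of AP-1, 8 of 23 genes were higher in each line and 3 (Cl19) or 2 (3c3) lower, with medians of 0.07 and 0.16, where 22.0% and 19.7% of all probes were higher and 30.3% and 28.6% lower. Without the slide of replicate 3, 4 were higher in 3c3, with 16% of all probes. *Mapk3*, the gene of ERK1, rose by 1.71 and 1.12, its target kinase *Rps6ka1* by 1.40 and 1.16, the p38 activator *Map2k6* by 2.52 and 1.54, and *Map2k2* by 0.67 and 0.26. *Mapk11*, the gene of p38β, fell by 2.54 in Cl19 and rose by 1.07 in 3c3, and *Braf* rose by 0.72 in Cl19 and fell by 0.69 in 3c3. The 3c3 calls of *Map2k6* (adjusted p = 0.097), *Map2k2* (adjusted p = 0.39) and *Mapk11* (adjusted p = 0.055) were lost without that slide.

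Genes often named as AP-1 targets were read last. Of 20 tested, Cl19 had 8 higher and 6 lower and 3c3 had 7 higher and 4 lower, with medians of 0.44 and 0.34, beside 22.0% and 19.7% of all probes higher and 30.3% and 28.6% lower. *Plau*, which codes for urokinase, did not stand well above background on d0 and was higher on d6 by at least 124-fold in Cl19 and at least 179-fold in 3c3. The membrane protease gene *Mmp14* rose by 4.56 and 2.79. *Itga2*, a collagen receptor gene, fell by 2.44 in 3c3 and was lower by at least 48.8-fold in Cl19. *Ccnd1*, the gene of cyclin D1, fell by 3.61 in Cl19 and rose by 0.87 (adjusted p = 0.046, and 0.20 without the slide of replicate 3) in 3c3, where its d0 and d6 arrays overlapped.

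**Figure D4:**
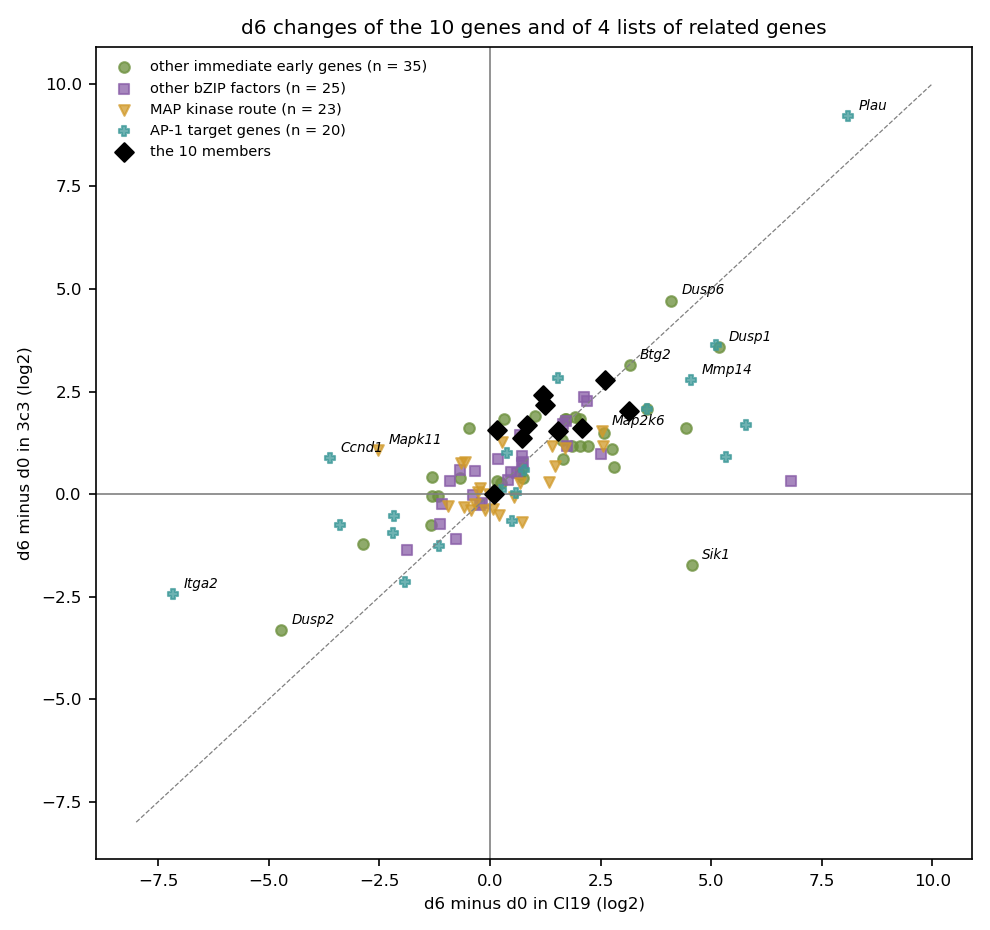
Change from d0 to d6 in Cl19 (x axis, log2) against that in 3c3 (y axis, log2) for the 10 genes and the genes of the 4 lists, 1 point per gene, with a dashed line of equal change. *Dusp1*, *Dusp6* and *Btg2* lie far up in both lines, while *Sik1* is at 4.56 in Cl19 and -1.73 in 3c3.

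Finally, the genes whose 8 group means over the days and lines were most like those of the 5 members called over time in both lines were listed by Pearson correlation, as a description of 8 points that share libraries and a common upward or downward course. They were *Bbc3* (0.993) and *Mafg* (0.984) for *Jun*, *Echdc3* (0.994) and *Cela3b* (0.991) for *Junb*, *Sema3b* (0.996) and *Anxa7* (0.986) for *Jund*, *Gcnt2* (0.992) and the smooth muscle marker *Des* (0.975) for *Fosl1*, and *Kctd4* (0.987) and *Cbarp* (0.986) for *Ier3*.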

How the data were processed

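RNA was labeled with Cy3 and hybridized to Agilent Whole Rat Genome arrays, 1 sample per array. The authors deposited the background-corrected intensity of each feature from Agilent Feature Extraction 10.1.1.1, and a log2 series table whose values equal the log2 of these intensities, unscaled. The authors quantile-normalized such values before analysis, and that step was repeated here on the 43379 gene features of the 26 arrays. Features of a probe were averaged. Depth does not apply to arrays, and the number of arrays limits the precision.

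A probe was tested if some group had it well above background on all its arrays (24442 probes). The main fit was 1 limma model (version 3.58.1, R 4.3.3) over all 9 groups, without a term for the slide. Its p-values were adjusted by Benjamini-Hochberg, and adjusted values under 0.05 passed. Groups came from the labels. The code was tested on simulated data. Arrays of 1 replicate number share a slide, and their deviations from the group means correlated by over 0.1 in 16 of 18 pairs in Cl19 (lowest 0.06) and in 18 of 18 in 3c3 (lowest 0.20), so that the slide pairs the arrays. The main fit leaves this pairing out. The methods call the 3 arrays biological replicates.

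The alternatives were 75th percentile scaling, normexp with an offset of 50, the series table, no filter on dim probes, the slide as a fixed or random block, each line alone, the methods' t-test, leaving out each array, and leaving out the slide of 3c3 replicate 3. For the lists, leaving out that slide or replicate 1 of Cl19 on d2 was chosen after seeing the data. Where a probe was not well above background on all arrays of the dimmer group, a fold is a bound against the lowest signal well above background on those arrays. Of the list genes, those with the largest change in the same direction in both lines (up to 4 per list), and up to 2 in opposite directions, are named. One list gene that met these criteria is left out of the text. Members and lists were chosen with earlier results of these data known. Names came from the array's annotation and from RefSeq (21329 probes). Probe positions were taken from the annotation of the array (rn4), and whether a probe lies in an exon or untranslated region was not analysed here.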

Additional observations from a re-analysis of the deposited data

Results flagged for a closer look

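The change from d0 to d6 differed between the lines, by limma's test of that difference, for 1 of the 10 genes and for 6 named genes of the lists. Differences are Cl19 minus 3c3 on the log2 scale, and all groups held 2 or 3 arrays, too few to test for a stray array. *Fosl2* differed by -1.40 (adjusted p = 0.042), since it rose in 3c3 and did not pass in Cl19. *Dusp1* differed by 1.58 (adjusted p = 0.027), having risen more in Cl19, and this call was lost without the slide of 3c3 replicate 3 (1.33, adjusted p = 0.17). *Sik1* (6.29, adjusted p = 2.2e-08) and *Braf* (1.41, adjusted p = 1.1e-04) rose in Cl19 and fell in 3c3. *Mapk11* (-3.61, adjusted p = 1.0e-05) and *Ccnd1* (-4.48, adjusted p = 3.4e-06) fell in Cl19 and rose in 3c3. Without the slide of 3c3 replicate 3 these rises in 3c3 did not pass (adjusted p = 0.055 and 0.20). The differences between the lines held without it (-3.61, adjusted p = 5.1e-04, and -4.41, adjusted p = 2.8e-04). For *Itga2* the fitted difference was -4.73 (adjusted p = 1.3e-04), but no d6 array of Cl19 was well above background, so that its size has no fixed value.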

How the results depend on the processing

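The counts of members past the threshold on d6 and over time stayed within 1.5 times under all alternatives run for them, and so did the counts against the primary SMC RNA, except that the series table gave 8 for Cl19. Without any 1 array the counts of members ranged from 5 to 7 (d6 against d0) and 5 to 6 (over time) in Cl19, from 7 to 8 for both in 3c3, and from 5 to 5 and 5 to 7 against the primary SMC RNA, and 0 members differed between the lines on d0.

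The steps between days depended more on the processing. Shares of all probes are not given for each alternative, so the counts below describe the processing alone. For d2 against d0 in Cl19, 0 members passed with normexp, without the filter on dim probes, with each line alone, by the methods' t-test and without the slide of 3c3 replicate 3, 2 passed with the replicate as a fixed block, and 0 to 1 without any 1 array. In 3c3, 1 passed in the series table and by the t-test, 3 with a fixed and 2 with a random block, and 0 to 0 without any 1 array. For d4 against d2, Cl19 had 1 with its line alone, 0 by the t-test and 1 to 4 without any 1 array, and 3c3 had 4 with either block, 0 by the t-test, 0 without its slide of replicate 3 and 1 to 3 without any 1 array (1 without replicate 1 or 2 of d2 or 2 or 3 of d4). For d6 against d4, Cl19 had 0 with its line alone and by the t-test, 1 without that slide and 0 to 3 without any 1 array, and 3c3 had 0 by the t-test, 1 without that slide and 1 to 2 without any 1 array. The difference between the lines had 0 calls without the filter and without that slide and 0 to 1 without any 1 array.

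Signs changed for values near 0 or with the scaling. Against the primary SMC RNA, 75th percentile scaling gave 0.36 (*Junb*, Cl19), 0.82 (*Jund*, Cl19) and 0.53 (*Jund*, 3c3), the series table -1.93 (*Fos*, Cl19), -1.79 (*Fosl2*, Cl19), -1.37 (*Junb*, 3c3) and -0.19 (*Ier3*, 3c3), and normexp -0.038 (*Fos*, Cl19). Without any 1 array, *Junb* in Cl19 ranged from -0.23 to 0.0050 and *Fos* from -0.17 to 1.16. From d0 to d6, *Fosb* gave -0.0014 with normexp in Cl19 and -0.031 in 3c3 without the slide of replicate 3, and without any 1 array it ranged from -0.10 to 0.26 and from -0.27 to 0.24. *Fosl2* in Cl19 ranged from -0.015 to 0.25. By the methods' t-test *Jund* in Cl19 (adjusted p = 0.068) and *Fos* in 3c3 (adjusted p = 0.11) did not pass from d0 to d6. Beyond the calls given beside the results, the replicate block changed no call of d6 against d0. The cause of these changes was not tested. *Egr1* was limited by signal, being close to background in rMAPCs.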
